A study of Rattus norvegicus with 12 samples.

Results

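The genes described here are the enzymes that release free glucose from glucose-6-phosphate and that carry the irreversible steps of gluconeogenesis: 8 genes of the 28727 named entries of the count table. G6pc and G6pc3 encode catalytic subunits of glucose-6-phosphatase, G6pc2 is named as another, and Slc37a4 encodes the transporter that brings glucose-6-phosphate to them. Fbp1 and Fbp2 encode fructose-1,6-bisphosphatases, and Pck1 and Pck2 encode phosphoenolpyruvate carboxykinases. The members were chosen by gene name, with their read counts in these same libraries, and the differences between the groups, already known from an earlier look at the table. Their values and their differences between the groups are therefore given as a description.

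RNA was sequenced from INS-1 832/13 cells, a glucose-responsive, insulin-secreting line derived from a rat insulinoma. The control cells carried an adenovirus expressing GFP, and the others carried an adenovirus for mouse ChREBPβ with an mCherry tag; this is the shorter product of Mlxipl, the gene of the transcription factor ChREBP, which responds to glucose. The glucose concentration was 2 mM or 11 mM over the 48 h with either virus, with 3 libraries in each of the 4 groups, and the RNA was amplified before sequencing. All groups come from 1 cell line. Library totals were 25754488 to 32938546 counts for GFP at 2 mM, 36219167 to 46654823 for GFP at 11 mM, 28595982 to 57726412 for ChREBPβ at 2 mM and 57088794 to 60531215 for ChREBPβ at 11 mM. Library a of ChREBPβ at 2 mM was the shallowest of the ChREBPβ libraries, with 28595982 counts against 57726412 and 57313995 in libraries b and c. Values are given as raw counts and as CPM, that is counts for each 1000000 counts of the library after TMM scaling. Where none of the libraries of a group exceeds 3 counts of a gene, the gene is taken to be at the floor there, and intervals and floors cover counting error only.

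As background, glucose-6-phosphatase sits in the membrane of the endoplasmic reticulum, where the transporter and a catalytic subunit together complete glucose output in the liver and kidney. In the β-cell, hydrolysis of glucose-6-phosphate opposes the phosphorylation of glucose by glucokinase, and G6PC2 is the catalytic subunit known for its expression in islets. Carbohydrate and ChREBP are known to induce G6pc in hepatocytes, and the β-cell is known for low phosphoenolpyruvate carboxykinase activity in the cytosol and for PCK2 in mitochondria.

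The label of the virus was first checked with the overexpressed gene and known targets of ChREBP. Mlxipl had a mean of 256 ± 18.8 CPM (SD, n = 3) with GFP against 205 ± 6.63 with ChREBPβ at 2 mM, and at 11 mM 207 ± 5.32 against 188 ± 11.0, so the rat gene was not higher with the ChREBPβ virus. A separate entry named ChREBPb, looked at after the table had been seen, had 77.8 ± 4.53 and 90.1 ± 0.504 CPM at 2 mM and 68.0 ± 4.63 and 88.0 ± 9.0 at 11 mM; what sequence it counts is not given in the sources used here. Whether reads from the mouse transgene reach either entry was not tested. Txnip, a ChREBP target that inhibits thioredoxin, rose 17.4-fold at 2 mM, to 457 ± 13.0 CPM against 26.3 ± 1.72 with GFP (adjusted p = 2.12e-21 by edgeR), and 1.90-fold at 11 mM, to 666 ± 9.79 against 351 ± 18.2 (adjusted p = 1.54e-12 by edgeR), with no overlap between the groups. Pklr, which encodes liver-type pyruvate kinase, rose at 2 mM to 417 ± 10.2 CPM against 130 ± 3.46 with GFP, and at 11 mM to 446 ± 3.93 against 211 ± 15.6 (adjusted p = 1.52e-16 and 1.72e-13 by edgeR).

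Of the 8 members, G6pc2 and Pck1 were near zero in every group. G6pc was near zero in both GFP groups and above the floor in both ChREBPβ groups, and G6pc3, Slc37a4, Fbp1, Fbp2 and Pck2 were detected in all 12 libraries. A filter on low counts passed 6 members, and G6pc passed it through the ChREBPβ groups alone.

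G6pc, the catalytic subunit of liver and kidney, had counts of 0, 0 and 0 in the GFP libraries at 2 mM and of 1, 0 and 0 at 11 mM. With ChREBPβ it had 18, 54 and 50 counts at 2 mM and 55, 106 and 98 counts at 11 mM. Every ChREBPβ library stood above every GFP library at the same glucose concentration. Scaled, the ChREBPβ libraries held 0.645, 0.962 and 0.895 CPM at 2 mM and 0.938, 1.86 and 1.79 CPM at 11 mM, a mean of 0.834 ± 0.168 and 1.53 ± 0.514 (SD, n = 3). Library a was the lowest of its group at both concentrations. The GFP group at 2 mM, with 88890459 counts in all before TMM scaling, would show 3 counts at a scaled level of 0.0324 CPM. Against this floor, taken over the group, G6pc was at least 26.95-fold higher with ChREBPβ at 2 mM, and at least 16.98-fold without library b and 17.88-fold without library c of GFP, since fewer counts raise the floor. This bound leaves out the counting error of the 122 counts with ChREBPβ, whose 95% Poisson limits were 0.724 and 1.04 CPM. The upper limit for the GFP group, 0.0398 CPM, lay above the floor, so the bound is not a 95% limit. At 11 mM the ratio of 259 counts to 1, scaled for library size, was 197-fold, with an exact 95% binomial interval of 35.1 to 7827. Without library c of GFP the ratio was 126-fold, and without library a, which held the count, G6pc was at least 42.89-fold higher. The ratio thus rests on 1 count with GFP, and its interval leaves out the spread between the ChREBPβ libraries at 11 mM, which was larger than counting error gives (chi-square 20.05 on 2 degrees of freedom). The ChREBPβ libraries were on the whole deeper than the GFP libraries, and both values are scaled for this. In bulk RNA, fewer cells of a type and less RNA per cell cannot be told apart, so the values do not say what share of the cells held the transcript.

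Between the glucose concentrations, G6pc was 1.79-fold higher at 11 mM than at 2 mM with ChREBPβ, a log2 difference of 0.84 ± 0.30 (SE). The groups overlapped, since library a at 11 mM (0.938 CPM) lay below library b at 2 mM (0.962 CPM). The difference was not called in the fit of all libraries and was called without library a of ChREBPβ at 11 mM, where it was 1.09 on the log2 scale. In the GFP groups, both at the floor, no fold is given. Among 12242 genes that had at most 3 counts in each of the 6 GFP libraries, 18 passed the filter on low counts, and G6pc was among them.

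The bases before the annotated start of G6pc are shown because this was the member that differed most between the viruses, and those of Pck1 and G6pc3 because they are, in turn, a gluconeogenic gene near zero in all groups and a catalytic subunit detected in all 12 libraries and not called between the viruses. Each line is 250 bases from RefSeq in the GRCr8 assembly, on the plus strand, at chr10:86807409-86807658 for G6pc (named G6pc1 there), chr3:182348322-182348571 for Pck1 and chr10:87646899-87647148 for G6pc3. Capitals mark matches to the E-box CACGTG, the TATA box TATAAA and the core of the cAMP response element TGACGT, searched on both strands; none of these matches overlap.
G6pc: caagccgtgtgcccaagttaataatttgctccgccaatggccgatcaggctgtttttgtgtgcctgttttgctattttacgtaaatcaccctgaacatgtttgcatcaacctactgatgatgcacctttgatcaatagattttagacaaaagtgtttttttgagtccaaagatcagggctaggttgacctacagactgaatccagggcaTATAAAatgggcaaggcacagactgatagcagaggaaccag
Pck1: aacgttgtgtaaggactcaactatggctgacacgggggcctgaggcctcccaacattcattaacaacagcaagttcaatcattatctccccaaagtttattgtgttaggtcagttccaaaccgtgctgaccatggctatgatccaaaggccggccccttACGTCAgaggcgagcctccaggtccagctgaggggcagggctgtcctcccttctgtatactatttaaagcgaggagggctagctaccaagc
G6pc3: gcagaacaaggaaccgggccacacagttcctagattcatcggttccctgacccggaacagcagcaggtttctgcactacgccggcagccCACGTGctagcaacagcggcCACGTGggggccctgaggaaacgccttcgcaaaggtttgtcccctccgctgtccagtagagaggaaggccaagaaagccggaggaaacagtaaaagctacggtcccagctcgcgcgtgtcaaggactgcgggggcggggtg

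An entry of this kind was found for 7 of the 8 members, with Fbp2 unmatched. The G6pc window held a TATA box starting 41 bases before the start and no E-box. The G6pc3 window held 2 E-boxes, at 161 and 141 bases before the start, and the Pck1 window a cAMP response element core at 91 bases. Slc37a4 has 2 annotated starts, and the overlapping windows before them share a single TGACGT, and the windows of G6pc2, Fbp1 and Pck2 held none of these letters. Over the 33469 promoter windows of the table, 5.59% held CACGTG, 12.9% TATAAA and 6.95% TGACGT. ChREBP with Mlx is known to bind the longer carbohydrate response element, a pair of E-box-like motifs. The form searched was CAYGYG and, after a fixed spacer of any bases, CRCRTG, where Y is C or T and R is A or G. This form was found in 0.0269% of all windows and in none of the members' windows. Looser forms of the element were not searched. A match is a description of these letters, and a window without one says nothing about sites further away.

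G6pc2, named for the islet catalytic subunit, had 2, 0 and 1 counts with GFP at 2 mM and 0, 0 and 1 at 11 mM. The ChREBPβ libraries at 2 mM held 0, 2 and 2 counts and those at 11 mM held 1 each. All 4 groups were at the floor, so no fold is given, and any level lay under the upper 95% Poisson limit of 0.0946 CPM in the GFP group at 2 mM and of 0.0515 CPM in the ChREBPβ group at 11 mM. Tpi1, a gene of glycolysis named after its values were seen, had only 26 to 59 counts a group, so a row near 0 in this table may also come from the annotation or the counting. Whether this holds for G6pc2 or Pck1 was not tested. Whether the rat G6pc2 gene encodes a working enzyme is not given in the sources used here, so its low counts are not read as a loss.

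G6pc3, the catalytic subunit found in most tissues, had 826, 1301 and 1248 counts with GFP at 2 mM and 1770, 1478 and 1685 at 11 mM. With ChREBPβ it had 873, 1869 and 1914 counts at 2 mM and 2008, 1958 and 1822 at 11 mM. Raw counts followed the depth of the libraries, and the scaled values lay closer together. At 2 mM it was at 30.4, 37.9 and 40.0 CPM with GFP and 31.3, 33.3 and 34.3 CPM with ChREBPβ, so the groups overlapped. At 11 mM it was at 39.2, 39.6 and 35.6 CPM with GFP and 34.2, 34.3 and 33.3 CPM with ChREBPβ without overlap. The differences between viruses were -0.13 ± 0.08 and -0.17 ± 0.07 on the log2 scale (SE), and neither was called.

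Slc37a4, the glucose-6-phosphate transporter, had 1602, 2103 and 2000 counts with GFP and 1225, 2300 and 2406 with ChREBPβ at 2 mM. At 11 mM it had 2476, 2118 and 2806 counts with GFP and 2305, 2295 and 2302 with ChREBPβ. The raw counts of the viruses overlapped at both concentrations, and scaling separated them. Scaled, its level was 58.9, 61.3 and 64.1 CPM with GFP and 43.9, 41.0 and 43.1 CPM with ChREBPβ at 2 mM. At 11 mM it was 54.8, 56.7 and 59.3 CPM with GFP and 39.3, 40.2 and 42.1 CPM with ChREBPβ. It was lower with ChREBPβ by a log2 difference of -0.53 ± 0.05 at 2 mM and -0.49 ± 0.05 at 11 mM, which is 0.693 and 0.712 of the GFP level. Slc37a4 had 1225 to 2806 counts in a library, and its SE was the smallest among the members.

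**Figure D1:**
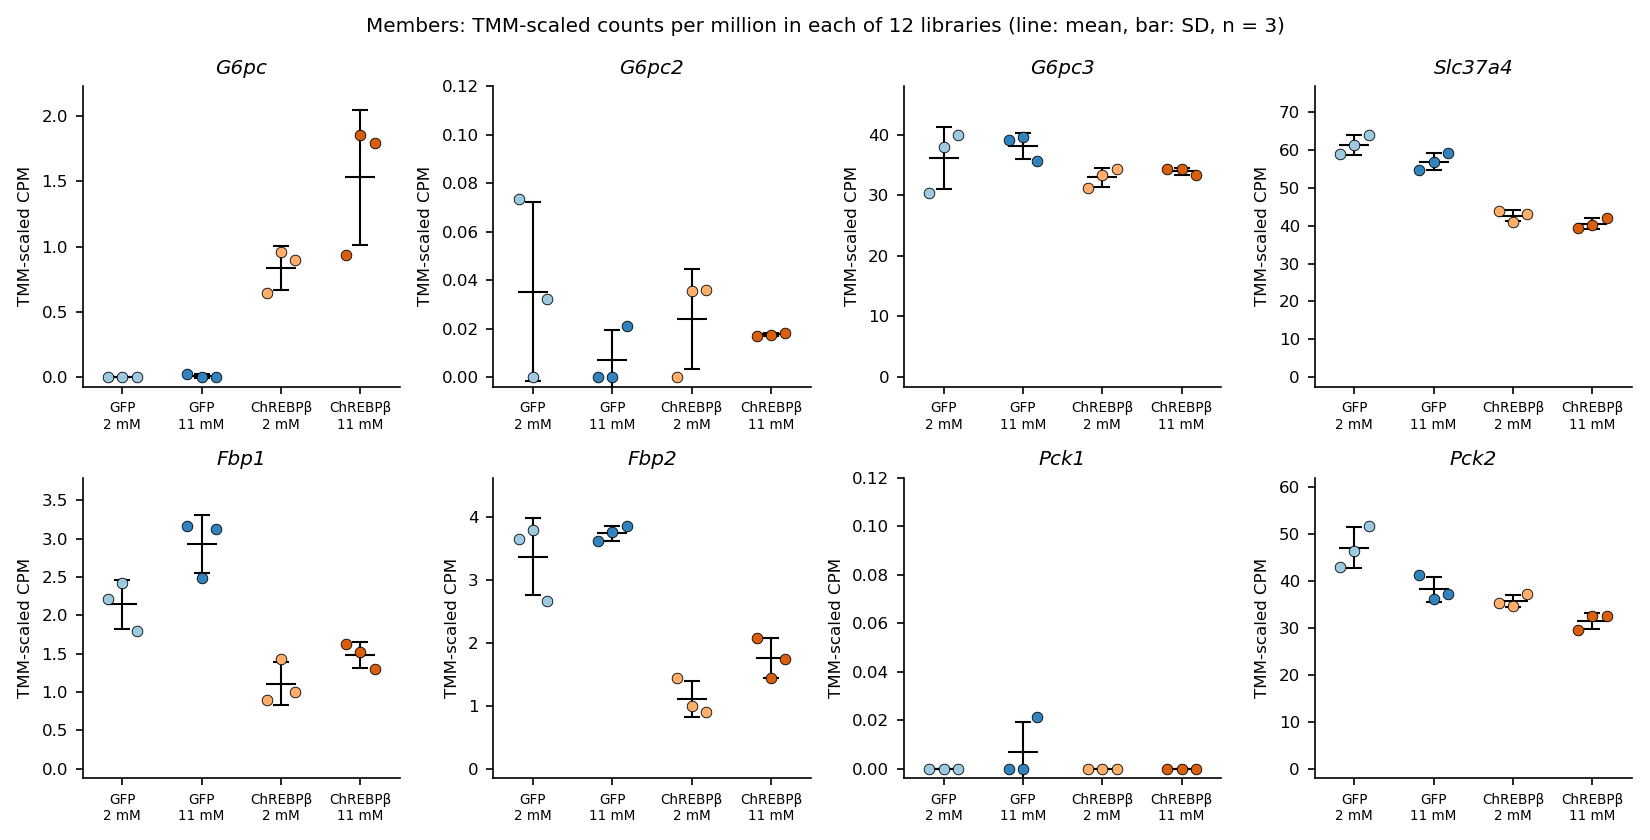
TMM-scaled CPM of each member (vertical axes from 0, on a scale of their own) in the 12 libraries, with the mean and SD of 3 libraries per group; the horizontal axes give the virus and glucose concentration. G6pc is at 0.645 to 1.86 CPM with ChREBPβ and at most 0.0221 CPM with GFP, while Slc37a4, Fbp1 and Fbp2 are lower with ChREBPβ and G6pc2 and Pck1 stay under 0.08 CPM.

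Fbp1, the liver-type fructose-1,6-bisphosphatase, had 60, 83 and 56 counts with GFP and 25, 80 and 56 with ChREBPβ at 2 mM. At 11 mM the counts were 143, 93 and 148 with GFP and 95, 87 and 71 with ChREBPβ. Scaled, this was 2.21, 2.42 and 1.80 CPM against 0.895, 1.43 and 1.00 CPM at 2 mM, and 3.16, 2.49 and 3.13 CPM against 1.62, 1.53 and 1.30 CPM at 11 mM. The ChREBPβ libraries lay below the GFP libraries at each concentration. The log2 difference was -0.92 ± 0.21 at 2 mM and -0.99 ± 0.19 at 11 mM, or 0.530 and 0.505 of the GFP level.

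Fbp2, the muscle-type isozyme, had 99, 130 and 83 counts with GFP and 40, 56 and 50 with ChREBPβ at 2 mM. At 11 mM the counts were 163, 140 and 182 with GFP and 122, 82 and 95 with ChREBPβ. Scaled, the GFP libraries held 3.64, 3.79 and 2.66 CPM and the ChREBPβ libraries 1.43, 0.998 and 0.895 CPM at 2 mM. At 11 mM these were 3.60, 3.75 and 3.85 CPM with GFP and 2.08, 1.44 and 1.74 CPM with ChREBPβ. No ChREBPβ library reached the lowest GFP library at the same glucose concentration. The log2 difference was -1.66 ± 0.21 at 2 mM and -1.09 ± 0.18 at 11 mM, which leaves 0.317 and 0.470 of the GFP level. The ChREBPβ effect at 11 mM minus that at 2 mM was 0.57 ± 0.27 and was not called. Fbp1 and Fbp2 are related genes that neighbour each other on chromosome 17 of GRCr8, and how reads that match both were counted is not given in the sources used here, so the split between the isozymes is uncertain.

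Pck1, the cytosolic phosphoenolpyruvate carboxykinase, had a single count in all 12 libraries, in library c of GFP at 11 mM. The other libraries held 0, which in the ChREBPβ group at 11 mM allows up to 0.0176 CPM (3 counts over the group). No fold is given for it in any comparison.

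Pck2, the mitochondrial isozyme, had 1171, 1592 and 1613 counts with GFP and 983, 1947 and 2074 with ChREBPβ at 2 mM. At 11 mM it had 1865, 1349 and 1760 counts with GFP and 1733, 1853 and 1778 with ChREBPβ. Scaled, it was at 43.0, 46.4 and 51.7 CPM with GFP and 35.2, 34.7 and 37.1 CPM with ChREBPβ at 2 mM, and at 41.2, 36.1 and 37.2 CPM and 29.6, 32.5 and 32.5 CPM at 11 mM. The ranges of the viruses did not overlap at either concentration. Its log2 difference was -0.40 ± 0.07 at 2 mM and -0.28 ± 0.07 at 11 mM. The latter is 0.825 of the GFP level and close to the minimum of 1.2-fold, and it missed that minimum with DESeq2 and with RLE factors (both -0.26) and without library a of either virus at 11 mM (-0.22 and -0.23).

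Ordered by group mean, G6pc was lowest with GFP at either concentration, higher with ChREBPβ at 2 mM and highest with ChREBPβ at 11 mM, and the last pair overlapped. Fbp1 ran from 1.11 CPM with ChREBPβ at 2 mM through 1.48 with ChREBPβ at 11 mM and 2.14 with GFP at 2 mM to 2.93 with GFP at 11 mM, and the ChREBPβ groups overlapped. Fbp2 had the same order, from 1.11 and 1.75 CPM with ChREBPβ to 3.36 and 3.73 CPM with GFP, with the GFP groups overlapping. Slc37a4 was ordered from 40.6 CPM with ChREBPβ at 11 mM and 42.6 at 2 mM to 56.9 with GFP at 11 mM and 61.4 at 2 mM, with overlap between the concentrations in each virus. Pck2 ran from 31.5 and 35.7 CPM with ChREBPβ at 11 and 2 mM to 38.2 and 47.0 CPM with GFP at 11 and 2 mM, and the libraries of ChREBPβ at 2 mM overlapped with those of GFP at 11 mM. G6pc3 lay between 33.0 CPM with ChREBPβ at 2 mM and 38.1 CPM with GFP at 11 mM, with each group overlapping its neighbour in the order.

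**Figure D2:**
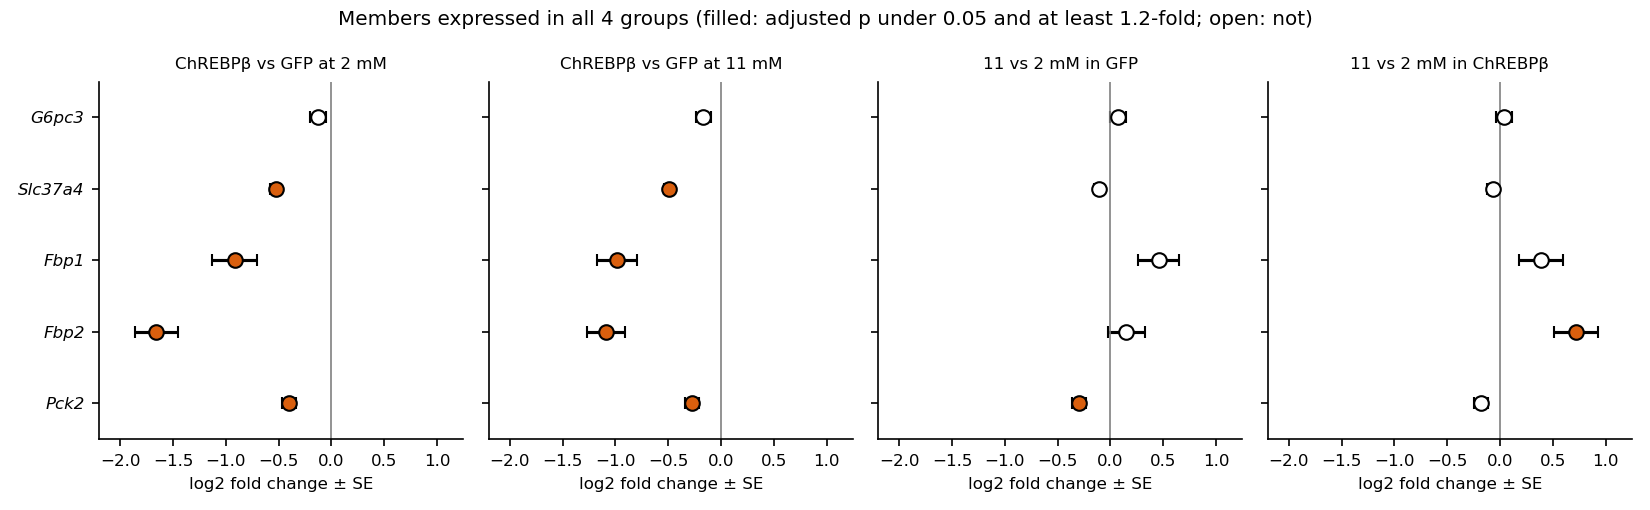
Log2 fold change ± SE (horizontal axes) of the 5 members detected in all 4 groups, in each of 4 comparisons with 3 libraries a group; filled points passed an adjusted p of 0.05 and 1.2-fold. Fbp2 is farthest from 0 with ChREBPβ, at -1.66 at 2 mM and -1.09 at 11 mM, and G6pc3 is nearest, at -0.13 and -0.17.

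Counting calls (an adjusted p under 0.05 by edgeR and at least 1.2-fold), the members had 4 genes lower (Slc37a4, Fbp1, Fbp2 and Pck2) with ChREBPβ at 2 mM, where 21.0% of all 14669 tested genes were called higher and 23.2% lower. At 11 mM the same 4 members were called lower, beside 14.3% of tested genes called higher and 19.1% lower. G6pc is not counted here, since a gene that passes the filter through the ChREBPβ groups alone had to differ. Since the members were chosen with these comparisons known, nothing is read from the counts. Leaving G6pc out, the median log2 difference of the other 5 tested members was -0.53 at 2 mM and -0.49 at 11 mM, against -0.02 and -0.02 over all tested genes; with G6pc at its bound (2 mM) or ratio (11 mM) the median of 6 was -0.46 and -0.38. Scaling by library totals alone kept these members lower with ChREBPβ and moved the share of all calls that were higher from 47.5% to 33.2% at 2 mM and from 42.9% to 29.3% at 11 mM. With GFP, glucose left 1 member called lower at 11 mM (Pck2), beside 10.2% of genes called higher and 10.0% lower. Pck2 was 0.812 of its level at 2 mM there, a log2 difference of -0.30 ± 0.07. Its call was lost without library c of GFP at 2 mM (-0.23) or library b of GFP at 11 mM (-0.26). Without the latter library 1 member was still called, so a member other than Pck2 was called there. With ChREBPβ, 1 member (Fbp2) was called higher at 11 mM, beside 0.988% of genes called higher and 2.88% lower. Fbp2 was 1.65-fold higher there, a log2 difference of 0.72 ± 0.21, and leaving out any of 5 single libraries ended the call: libraries b (0.66) and c (0.58) of the ChREBPβ group at 2 mM, libraries a (0.58) and c (0.73) of the ChREBPβ group at 11 mM, and library c of GFP at 11 mM (0.72). For the difference of the ChREBPβ effects between the glucose concentrations, 0 members were called by edgeR or by DESeq2, and 0 had an unadjusted p under 0.05, beside 8.07% of all tested genes called; a call is here an adjusted p under 0.05 by edgeR alone, with no minimum fold change.

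Around these enzymes, 11 genes supply the pathway by carboxylation of pyruvate and by shuttling its products or cofactors. At 2 mM 5 of 11 rose and 1 fell with ChREBPβ, beside 21.0% and 23.2% of all tested genes. At 11 mM 2 rose and 0 fell, beside 14.3% and 19.1%. The median log2 difference was 0.17 and 0.11. Pyruvate carboxylase (Pc), which makes oxaloacetate for the carboxykinases, rose from 119, 124 and 133 CPM to 275, 278 and 290 CPM at 2 mM (log2 1.17 ± 0.05, adjusted p = 2.39e-14 by edgeR) and from 131, 128 and 135 CPM to 270, 287 and 291 CPM at 11 mM (log2 1.10 ± 0.05, adjusted p = 8.05e-14 by edgeR), while Pck2 was lower. The dicarboxylate carrier Slc25a10 rose by 1.16 ± 0.04 and 0.68 ± 0.04 on the log2 scale (adjusted p = 1.01e-14 and 5.31e-11 by edgeR). H6pd, which makes NADPH from glucose-6-phosphate in the endoplasmic reticulum, had a log2 difference of -0.41 ± 0.08 at 2 mM (adjusted p = 0.000231 by edgeR) and of -0.22 ± 0.08 at 11 mM, where it was not called.

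A list of 14 genes held the kinases of glycolysis, pyruvate kinases included, and the glucokinase regulatory protein. Of these 12 were tested, and Hk3 is left out, since it reached the filter only with the ChREBPβ libraries and had to differ. Of the other 11, 7 rose and 1 fell with ChREBPβ at 2 mM, beside 21.0% and 23.2% of all tested genes. At 11 mM 6 rose and 1 fell, beside 14.3% and 19.1%. The median log2 difference was 1.08 and 0.62. Pfkfb3, whose product makes the fructose-2,6-bisphosphate that inhibits FBP1, rose from 20.2 ± 1.52 to 79.0 ± 2.14 CPM at 2 mM (log2 1.96 ± 0.06, adjusted p = 1.54e-16 by edgeR) and from 49.4 ± 1.58 to 96.7 ± 3.25 CPM at 11 mM (log2 0.97 ± 0.05, adjusted p = 3.28e-12 by edgeR). Pfkfb2 was the 1 gene that fell. It went from 89.6 to 58.1 CPM at 2 mM (log2 -0.62 ± 0.05) and from 73.4 to 51.5 CPM at 11 mM (log2 -0.51 ± 0.05). The hexokinase gene Hk3 had 0, 8 and 2 counts with GFP and 19, 70 and 56 with ChREBPβ at 2 mM, and no test of it is given. Hk2 rose by 1.97 ± 0.36 on the log2 scale at 2 mM (adjusted p = 9.45e-05 by edgeR). Its level was low, with 9, 6 and 5 counts with GFP and 23, 56 and 41 with ChREBPβ, or means of 0.222 and 0.852 CPM. Hk1 had at most 2 counts in every library.

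Of the enzymes that glycolysis and gluconeogenesis share, 11 of 12 were tested. With ChREBPβ 7 rose and 3 fell at 2 mM, beside 21.0% and 23.2% of all tested genes. At 11 mM 7 rose and 2 fell, beside 14.3% and 19.1%. The median log2 difference was 0.61 and 0.38. Gpi, which interconverts glucose-6-phosphate and fructose-6-phosphate, rose by 1.44 ± 0.05 at 2 mM and 1.03 ± 0.04 at 11 mM on the log2 scale (adjusted p = 8.68e-16 and 2.19e-13 by edgeR). Eno1, an enolase gene, rose by 0.89 ± 0.05 and 0.48 ± 0.05 (adjusted p = 1.95e-11 and 2.64e-07 by edgeR).

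Among regulators known to act on G6pc and Pck1, 21 of 22 were tested. With ChREBPβ 9 rose and 3 fell at 2 mM, beside 21.0% and 23.2% of all tested genes. At 11 mM 8 rose and 2 fell, beside 14.3% and 19.1%. The median log2 difference was 0.20 and 0.23. The coactivator gene Ppargc1a rose by 1.48 ± 0.08 on the log2 scale at 2 mM (adjusted p = 9.61e-12 by edgeR). Nr0b2, which encodes the repressor SHP, rose by 1.53 ± 0.09 (adjusted p = 1.48e-11 by edgeR), and Cebpa by 1.07 ± 0.07 (adjusted p = 1.47e-10 by edgeR). The regulator gene Klf15 had at most 3 counts in every library, as had Pck1.

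**Figure D3:**
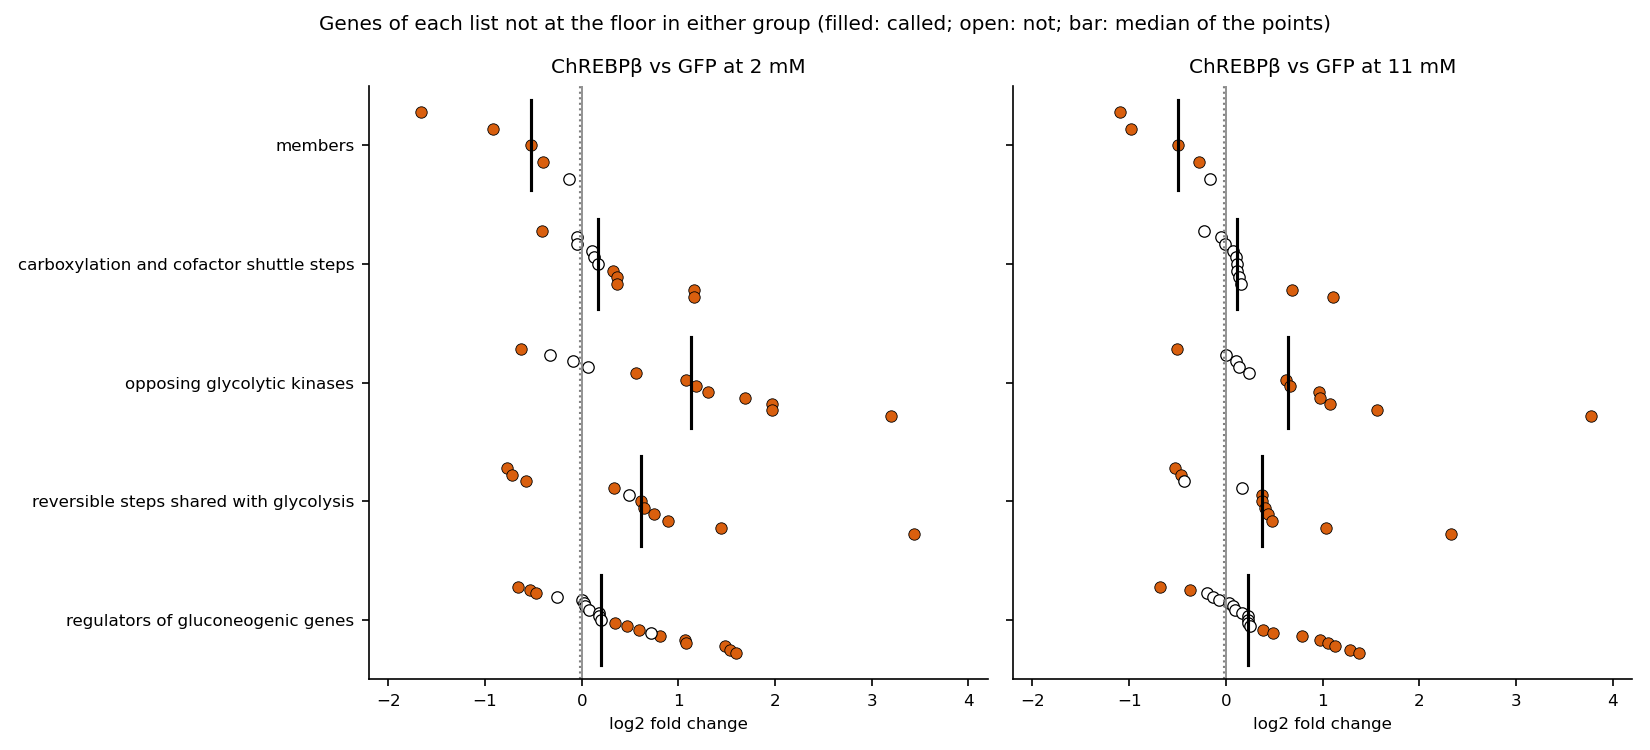
Log2 fold change of ChREBPβ against GFP (horizontal axes) at 2 mM and 11 mM for genes of each list that are not at the floor in either group; filled points were called, black bars are the medians of the points and the dotted line is the median of all tested genes. The members lie at or below -0.13, while the kinases, Hk3 included, have medians of 1.13 and 0.64; G6pc, at the floor with GFP, is not drawn.

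The genes whose mean-centred log2 CPM lay nearest to that of Fbp2 over the 12 libraries, out of 12477 that averaged 1 CPM or more, were Mtnr1a, Ccdc68, Prrg1, Lin7a and Dach2, with root mean square differences of 0.241 to 0.262. Mtnr1a, the gene nearest to Fbp2, had 21.7 and 23.0 CPM with GFP and 9.17 and 11.4 CPM with ChREBPβ at 2 and 11 mM. For G6pc, at 0 or 1 count in the GFP libraries, this measure is set by the prior count and is not given.

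Markers of cell type were read beside the members, since G6pc and Pck1 are genes of hepatocytes and kidney tubules. All 10 β-cell markers were detected, and their summed level was 24070 to 26980 CPM with GFP and 12980 to 13350 CPM with ChREBPβ at 2 mM, and 19540 to 21370 and 12240 to 12780 CPM at 11 mM; at 2 mM 9 fell and Slc2a2 rose with ChREBPβ. At 11 mM 8 fell and 1 rose. Of all tested genes, 23.2% fell and 21.0% rose at 2 mM, and 19.1% fell and 14.3% rose at 11 mM. Ins1 had the highest group mean CPM of these genes with GFP, and Chga with ChREBPβ. The summed level of 8 hepatocyte markers was 48.7 to 53.8 CPM with GFP and 47.1 to 51.7 CPM with ChREBPβ at 2 mM, and 49.0 to 53.9 and 48.2 to 49.8 CPM at 11 mM. Tf gave most of it, with group means of 38.3 to 40.7 CPM and no call with ChREBPβ. Fgb, with group means of 6.065 to 7.787 CPM, was lower with ChREBPβ at 2 mM (log2 -0.34) and at 11 mM (-0.36), and Serpina1, at 2.44 to 4.59 CPM, was not called with ChREBPβ. Alb had at most 7 counts in every library, Apoa1 at most 9, Apoh at most 6, and Cyp2e1 and Ahsg at most 3. Of 6 kidney proximal tubule markers, led by Lrp2, the sum was 5.95 to 7.83 CPM with GFP and 4.60 to 5.12 CPM with ChREBPβ at 2 mM, and 6.80 to 7.11 and 4.30 to 5.06 CPM at 11 mM, with Slc22a6 at 0. Slc34a1, named after its values were seen, went the other way from this sum: it had 0 to 2 counts a library with GFP and 7 to 12 with ChREBPβ at 2 mM, and 0 to 4 and 6 to 16 at 11 mM. It passed the filter through the ChREBPβ groups alone, so no test of it is given. What cell markers contribute to the values of G6pc was not tested. Of 6 alpha-cell and delta-cell markers, led by Gcg, the sum was 1617 to 1694 CPM with GFP and 437 to 448 CPM with ChREBPβ at 2 mM, and 1618 to 1730 and 457 to 508 CPM at 11 mM, with Sst and Irx2 at most 2 counts in every library. The part of the lower β-cell markers in the lower values of Slc37a4, Fbp1, Fbp2 and Pck2 was not tested.

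**Figure D4:**
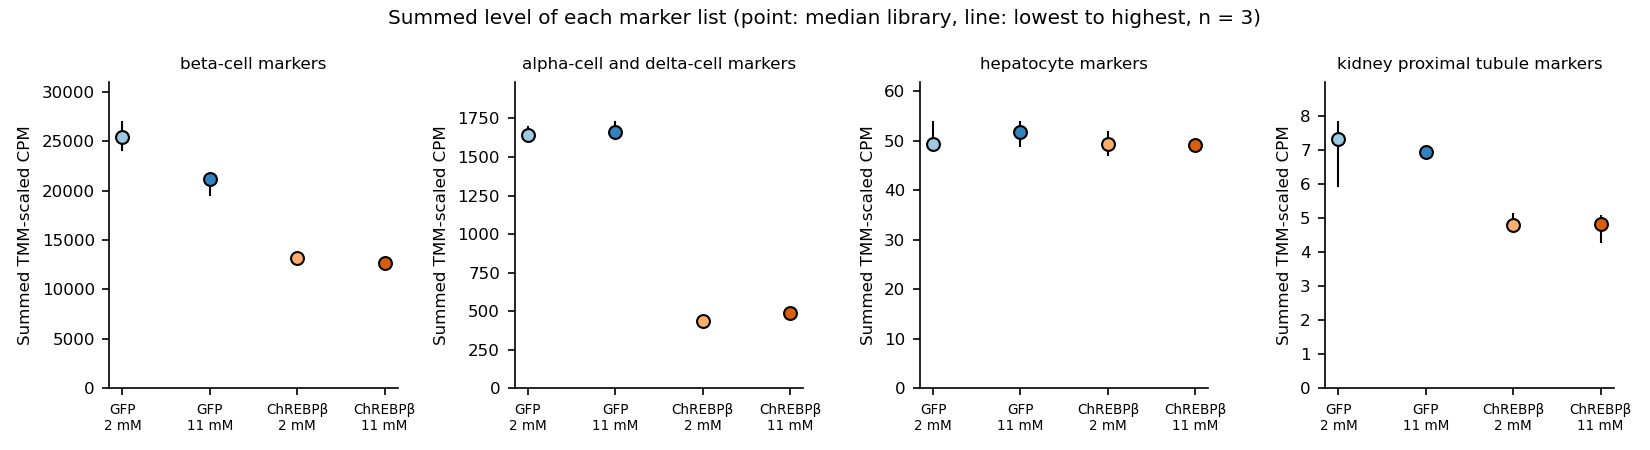
Summed TMM-scaled CPM of each marker list (vertical axes from 0) by group, with the median library as a point and a line from the lowest to the highest of 3 libraries. The hepatocyte sum lies between 47.1 and 53.9 CPM in all groups, while the β-cell sum is 24070 to 26980 CPM with GFP and 12980 to 13350 CPM with ChREBPβ at 2 mM.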

How the data were processed

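The authors deposited raw read counts per gene for 12 libraries of amplified RNA, sequenced from both ends, on the Rnor 6.0 assembly per the labels; the aligner and the counting tool are not given in the sources used here. Columns of group means, equal to the mean of the 3 libraries in each of 28728 rows within a relative tolerance of 1e-06, were not used further. Libraries were grouped by their labels. The entry without a gene name (0.0043% to 0.006% of a library) was left out. Counts were analysed with R 4.3.3 and edgeR 4.0.16: filterByExpr by group kept 14669 genes, TMM factors ranged from 0.958 to 1.06, and 1 quasi-likelihood fit took the 12 libraries with group as the factor; p-values were adjusted by Benjamini-Hochberg within each comparison. SEs of log2 fold changes were derived from the F statistics (absolute change over the root of F). DESeq2 1.42.0 and the other alternatives are given with their effect below. The test was checked on simulated counts. No transcript lengths were used, so levels of the members were not compared with each other. Within the marker lists, genes were ordered by CPM, which does not allow for length.

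The members and lists were chosen with earlier results of these data known. Named genes are the members, Mlxipl, Txnip, Pklr and, from each of 4 pathway lists, some of up to 5 called genes. These had the largest ChREBPβ difference at either glucose concentration. List genes with at most 3 counts in every library are named besides, and so is Pfkfb2, the kinase-list gene that fell. Some genes of these lists are not reported by name. Likeness was the root mean square difference of log2 CPM (prior count 2), each gene centred on its mean, for the 2 members with the widest range of group means; it is given for Fbp2 only, since the prior count sets it for G6pc. Python 3.11.15 was used for tables, exact intervals and figures.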

Additional observations from a re-analysis of the deposited data

Results flagged for a closer look

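No member had a difference between its ChREBPβ effects at 11 and 2 mM that passed the adjusted threshold with edgeR. Of the other genes named from the pathway lists or as ChREBP targets, 7 did. In each of these 7 the rise with ChREBPβ was smaller at 11 mM than at 2 mM. The log2 effect at 11 mM minus that at 2 mM is given. Among the glycolytic kinases the difference was -0.996 for Pfkfb3 and -0.61 for Pklr. For the shared enzymes it was -0.41 for Gpi, -0.41 for Eno1 and -0.34 for Gapdh. It was -0.48 for the carrier gene Slc25a10. The largest of the 7 was that of Txnip, at -3.20, where the GFP cells already had 351 CPM at 11 mM and 26.3 CPM at 2 mM. Of the 10 β-cell markers 4 passed too, Chga, Iapp and Pdx1 among them, and these named markers fell with ChREBPβ. The log2 differences of Chga were -0.49 at 2 mM and -0.28 at 11 mM. Those of Iapp were -1.55 and -1.35, and those of Pdx1 -1.06 and -0.78. What sets these differences was not tested.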

How the results depend on the processing

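Every called member difference kept its direction under each alternative in which the gene was tested. With a minimum of 2-fold, calls over all genes went from 6476 to 1456 (ChREBPβ against GFP at 2 mM), from 4904 to 992 (at 11 mM), from 2963 to 294 (glucose with GFP) and from 567 to 28 (glucose with ChREBPβ), and members called went from 5 to 2, 5 to 2, 1 to 0 and 1 to 0. Member counts for ChREBPβ against GFP include G6pc, which passed the filter through the ChREBPβ groups alone and had to differ. Without a minimum fold change the glucose calls were 5030 with GFP and 1100 with ChREBPβ. With DESeq2 there were 6454, 4842, 2954 and 616 calls and 1440 for the difference of the ChREBPβ effects. The alternatives counted next were DESeq2, RLE factors, upper quartile factors, library totals, no filter and a filter of 10 counts in every library. To these come the likelihood ratio test, the replicate block and, except for the last comparison, a fit of only the 2 groups compared. Over all of them, calls were 6024 to 6712, 4572 to 5230, 2748 to 3205, 547 to 718 and 1122 to 1472. Members called at 11 mM were 4 with DESeq2 and with RLE factors (without Pck2), and 4 at both concentrations with the filter of 10 counts, which removes G6pc. The likelihood ratio test called 2 members for glucose with GFP (Fbp1 besides Pck2), and no filter called 2 for glucose with ChREBPβ (G6pc besides Fbp2); the cause was not tested. Leaving out each library in turn gave 6140 to 6564, 4584 to 4967, 2643 to 2992, 392 to 604 and, for the difference of the ChREBPβ effects, 744 to 1395 calls over all genes (1184 with all libraries; 744 without library c of GFP at 11 mM and 767 without library b of ChREBPβ at 2 mM). Members called were then 5 to 5, 4 to 5, 0 to 1, 0 to 1 and 0 to 0. The lower bound for G6pc at 2 mM ranged from 17.0 to 28.7, lowest where a GFP library was left out and the floor rose, and the ratio at 11 mM from 126 to 237 (a bound of 42.89 without library a of GFP, which held the count).

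The replicate letters a, b and c occur in every group. The correlations of deviations from the group means between same-letter libraries were -0.114 to 0.064, with 0 of 18 over 0.1, so little shared deviation by letter was seen. With 3 libraries a group, such correlations cannot show whether same-letter libraries came from the same experiment, and the labels do not say. The fit with the letter as a block gave 6449, 4861, 2938, 547 and 1122 calls over all genes and 5, 5, 1, 1 and 0 members. G6pc2 and Pck1 had too few counts for their differences to be read.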
